A study of Mus musculus with 24 samples.

Results

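The constitutive proteasome subunits were followed on 24 Affymetrix arrays of mouse fat cells. They were taken as the probe sets whose single annotated gene symbol begins with Psma, Psmb, Psmc, Psmd or Psme followed by a digit, without the 3 immunoproteasome subunits Psmb8, Psmb9 and Psmb10. The rule found 50 of 12488 probe sets, which stand for 39 of 8252 annotated genes. Of these, 43 probe sets of 36 genes passed a filter on low signal that kept 8397 probe sets in all, and each count of members is over the 43. The 7 that did not pass are the only probe sets of Psmd2, Psmc4 and Psmc3ip and second probe sets of Psmb1, Psmb4, Psmc5 and Psme1. The symbols Psmc3ip and Psme3ip1 match the rule but name proteins that bind other factors and are not subunits. The probe sets of Psme2 carry a second symbol and were not taken.

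Brown or white fat was the source of primary cells, which were collected at day 7 of culture, called differentiated in the labels, or at day 4, called not differentiated. There were 5 brown day 7 arrays, 5 brown day 4 arrays, 6 white day 7 arrays and 8 white day 4 arrays. The labels name no treatment or allele, and strain, sex, age, depot and culture medium are not given in the sources used here. No label says which arrays came from separate animals or cultures, and a p-value here may therefore rest on technical spread alone. Brown arrays carry the lower numbers and white arrays the higher ones, so that handling and cell type cannot be told apart.

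The proteasome is the protease that degrades proteins tagged with ubiquitin. Its 20S core is a barrel of alpha rings, which gate the entry, around beta rings, in which Psmb5, Psmb6 and Psmb7 carry the chymotrypsin-like, caspase-like and trypsin-like active sites. The 19S cap recognises ubiquitin, unfolds the substrate with a ring of Psmc ATPases and removes the ubiquitin through Psmd14 in its lid, while the Psme proteins form alternative caps. In mouse brown fat the transcription factor Nfe2l1 is known to keep proteasome genes expressed when the tissue makes heat, through antioxidant response elements in their promoters.

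The stretches just before the transcription start are shown for 6 members. Of these, Psmb5 and Psmb6 are catalytic, and Psmb6 had no call in any comparison of the reported fit. Psmb3 had the largest excess in brown cells at day 7, Psmd5 and Psmd13 fell by day 7 in both cell types, and Psmd1 rose in white cells. The stretches are RefSeq sequences of the mouse build GRCm38.p6, read 5′ to 3′ and ending 1 base before the annotated start. Psmb5 lies at chr14:54617996-54618095 on the minus strand, Psmb6 at chr11:70525257-70525356 on the plus strand, Psmb3 at chr11:97703334-97703433 on the plus strand, Psmd5 at chr2:34870963-34871072 on the minus strand, Psmd13 at chr7:140882284-140882393 on the plus strand and Psmd1 at chr1:86064509-86064618 on the plus strand. Capitals mark the antioxidant response element core TGACNNNGC in Psmb5 and Psmb6 and CCAAT in Psmb3.
Psmb5: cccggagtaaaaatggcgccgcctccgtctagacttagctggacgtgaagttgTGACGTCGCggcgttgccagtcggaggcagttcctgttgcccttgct
Psmb6: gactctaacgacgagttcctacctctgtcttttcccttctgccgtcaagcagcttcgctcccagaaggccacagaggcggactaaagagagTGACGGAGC
Psmb3: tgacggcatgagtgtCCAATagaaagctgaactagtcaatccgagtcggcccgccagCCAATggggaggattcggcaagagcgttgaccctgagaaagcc
Psmd5: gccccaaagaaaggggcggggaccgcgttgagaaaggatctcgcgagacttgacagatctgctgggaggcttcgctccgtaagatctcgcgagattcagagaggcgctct
Psmd13: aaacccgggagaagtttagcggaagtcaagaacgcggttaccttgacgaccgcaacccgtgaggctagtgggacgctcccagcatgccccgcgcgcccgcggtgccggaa
Psmd1: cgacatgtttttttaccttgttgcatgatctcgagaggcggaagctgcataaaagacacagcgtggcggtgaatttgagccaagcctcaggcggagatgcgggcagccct

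Windows of 250 bases before the start were found for 33 of the 39 member genes, 36 windows in all, and were searched on both strands. Psmb1, Psmb2, Psmb7, Psmc3, Psmd3 and Psmd7 had no window. The core TGACNNNGC stood in 5 of the 36 windows (13.9%), those of Psmb5, Psmb6, Psmc6, Psmd12 and Psmd9, against 10.2% of all 32851 mouse promoter windows. CCAAT stood in 14 (38.9%), against 33.8%. Members called in at least 1 comparison had 14 windows. The core stood in 1 of these (7.14%), that of Psmb5, and CCAAT in 4 (28.6%). The motifs did not overlap in the stretches shown, and those of Psmd5, Psmd13 and Psmd1 held neither. A match of letters is no measure of binding, and binding was not measured here.

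Brown and white arrays carried the fat markers of their cell type. Summed over the 5 tested brown fat markers of 6 listed, signal was 1230.4 to 6981 on brown day 7 arrays and 453 to 1273 on brown day 4 arrays, against 349.6 to 792 on white day 7 arrays and 127 to 229.9 on white day 4 arrays. The probe sets of Ucp1, the uncoupling protein of brown fat, did not pass the filter. The 4 white fat markers summed to 128 to 230.5 and 86.5 to 127 on the brown arrays of day 7 and day 4, and to 1224 to 1992 and 683 to 1342 on the white ones. Of 6 tested adipocyte markers of 8 listed, 2 rose between the days in brown and 4 in white cells, and 0 fell. Of all probe sets 6% and 8.36% rose. The adipocyte markers summed to 10518 to 11918 and 4722 to 9286 on the brown arrays of day 7 and day 4. On the white ones the sums were 12274 to 16274 and 5145 to 9003. Median signal ran from 41.9 to 58.985, and no arrays were identical. Gapdh had a 3′ over 5′ signal ratio, which grows as RNA is degraded, of 1.36 ± 0.204 (SD, n = 6) on white day 7 arrays, against 0.943 ± 0.0955 (SD, n = 8) on white day 4 arrays. On brown arrays it was 0.889 ± 0.0379 at day 7 and 0.884 ± 0.0825 at day 4 (SD, n = 5 each). In RNA of a whole culture, fewer cells of a type and less RNA per cell cannot be told apart.

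**Figure D1:**
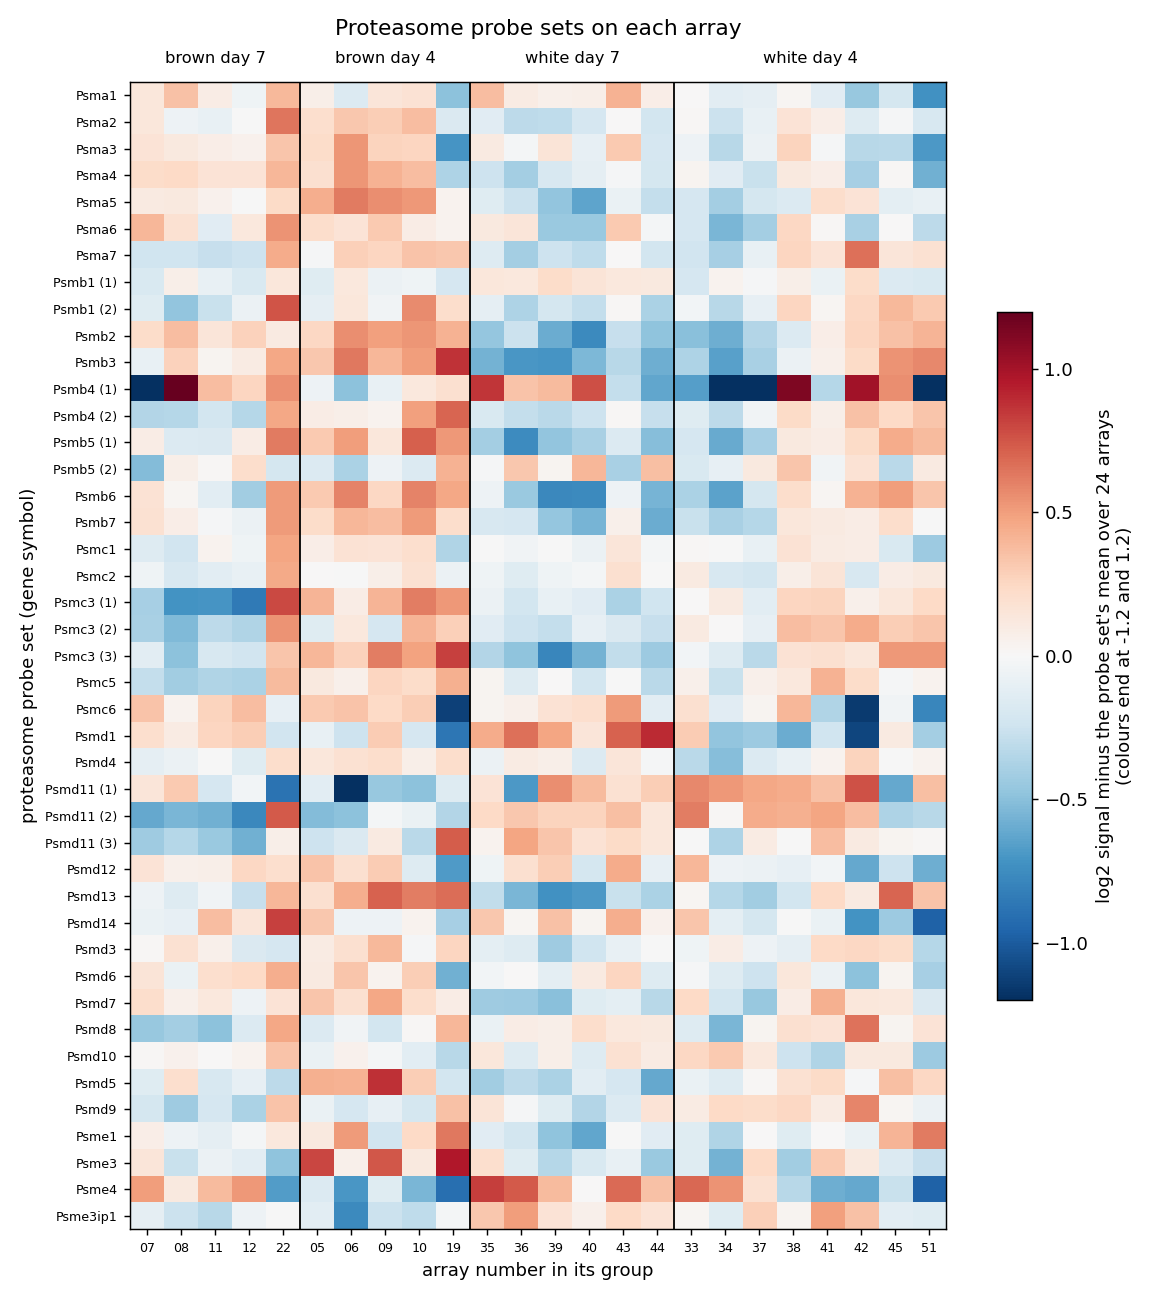
Deviation of the log2 signal of each of the 43 tested proteasome probe sets (rows, by role) from its own mean over 24 arrays, for every array (columns, by group). Brown day 7 array 22 is red for most rows, and the white day 7 columns are mostly pale blue or white.

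Array by array, proteasome signal was not even within a group. Each member's log2 signal was set against its own mean over the 24 arrays, and the median over the 43 members was taken. Brown day 7 array 22 had a median deviation of 0.38, whereas the other 4 brown day 7 arrays lay between -0.07 and -0.06. The brown day 4 arrays lay between 0.12 and 0.21. White day 7 arrays ran from -0.16 to 0.01 and white day 4 arrays from -0.22 to 0.14. Array 22 thus stood above every other array, while its 4 partners lay below all brown day 4 arrays. It was the highest of its group for 31 of 43 members (72.1%), against 27.2% of all probe sets tested. After quantile normalization its deviation was 0.36, and those of its partners were -0.06 to -0.03.

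White day 7 array 43 was likewise the highest of its group for 25 members (58.1%), against 15.4% of all probe sets. White day 4 array 34 was the lowest of its group for 19 members (44.2%), against 13.6%. Brown day 4 array 19 was the lowest for 19 members (44.2%), against 26.3%, and the highest for 13 (30.2%), against 29.7%. Results that use brown day 7 are therefore given with and without array 22 wherever a call changes.

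**Figure D2:**
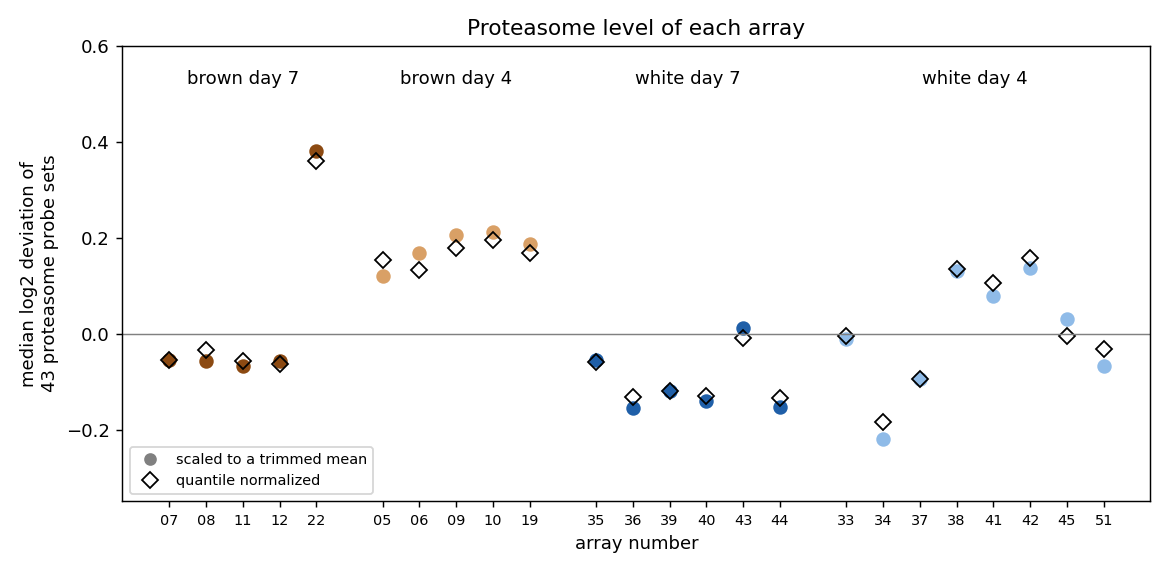
Median log2 deviation of the 43 tested proteasome probe sets from their own 24-array means, for each array (x axis, by group), after scaling to a trimmed mean (filled points) and after quantile normalization (open diamonds). Brown day 7 array 22 stands at 0.38, above all other arrays under both.

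Day 7 was set against day 4 in each cell type to ask how subunit transcripts moved as the cells matured. In brown cells, 6 of 43 member probe sets (14% of them) fell and 0 rose past an adjusted p of 0.05 in limma's moderated test with Benjamini-Hochberg adjustment over all 8397 probe sets. Of all probe sets 12.1% were called, 6.05% lower and 6% higher. Those that fell were 2 probe sets of Psmc3 and those of Psme3, Psmd13, Psmd5 and Psmc5. At an unadjusted p under 0.05, 11 members were lower and 1 was higher, together 27.9% of them, against 25.3% of all probe sets. The median log2 difference over the members was -0.16, against 0.01 over all probe sets, and 28 of 43 were negative. No member's day 7 arrays lay wholly apart from its day 4 arrays, which 4.41% (higher) and 5.31% (lower) of all probe sets did. Without array 22 there were 9 calls, 8 lower and 1 higher (20.9%, against 13.9% of all probe sets), with Psma7, Psmb4, Psme4 and another Psmc3 probe set added and Psmd5 lost. Leaving out brown day 4 array 09 left 2 calls, and leaving out brown day 4 array 10 or brown day 7 array 07, 11 or 12 left 3. With runs of adjacent array numbers as a block, 11 members were called, 10 lower and 1 higher (25.6%, against 19.2% of all probe sets). Day 4 array 19 and day 7 array 22, whose numbers are not adjacent, were put in 1 block. Among the named probe sets the block added Psma5, Psmb3, Psmb4 and Psmd11, lower, and Psme4, higher (adjusted p = 0.0354, 0.0131, 0.00438, 0.0421 and 0.0163).

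In white cells, 8 of 43 member probe sets (18.6%) fell and 3 (6.98%) rose between the same days, where 19% of all probe sets were called, 10.6% lower and 8.36% higher. Lower at day 7 were Psmb2, Psmb3, Psmb5, Psmd5, Psmd7, Psmd13 and 2 probe sets of Psmc3, and Psma1, Psmd1 and Psme4 were higher. Limma gave 14 members lower and 5 higher at an unadjusted p under 0.05, 44.2% of them, against 32.3% of all probe sets. The median log2 difference was -0.06, against 0.01 over all probe sets. Only Psma1 had groups that did not overlap, which 2.23% of all probe sets had in that direction and 2.56% in the other. Psmc3, Psmd13 and Psmd5 fell in both cell types, which share no arrays. The sign of the difference was the same in both for 81.4% of members, against 71% of all probe sets.

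The white calls moved with 2 other measurements. With the Gapdh 3′ over 5′ ratio as a covariate, limma called 0 of the 43 members and 37 of 8397 probe sets, and 1 member was higher and 1 lower at an unadjusted p under 0.05 (4.65%, against 12.4% of all probe sets). The median over the members was -0.14 with the covariate and -0.06 without it. White day 4 arrays 45 and 51 had the lowest median signals of the series, 42.8 and 41.9. Without them 2 members were called (4.65%, against 12.6% of all probe sets), Psmc3 lower and Psmd1 higher. Leaving out 1 array gave 5 calls without white day 4 array 42 or 45 or white day 7 array 44, 6 without white day 4 array 41 or 51 or white day 7 array 36 or 39, and 7 without white day 7 array 35. The count rose to 15 without white day 4 array 34 (34.9%, against 22.8% of all probe sets). It was 14 without brown day 7 array 22 (32.6%, against 20.1%). With runs of adjacent array numbers as a block there were 8 calls (18.6%, against 17.1% of all probe sets), and those of Psma1, Psmb2 and Psmb5 were lost (adjusted p = 0.122, 0.0897 and 0.0830). Arrays 45 and 51 formed a block of day 4 arrays only, so this fit took no white day difference from them. It is therefore not a check separate from leaving them out. The Gapdh ratio ran from 1.09 to 1.54 on white day 7 arrays and from 0.841 to 1.10 on white day 4 arrays. With so little overlap the covariate fit can hardly separate the ratio from the day. The calls lost in it do not tell the 2 apart, and the part of RNA quality in these results was not tested.

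**Figure D3:**
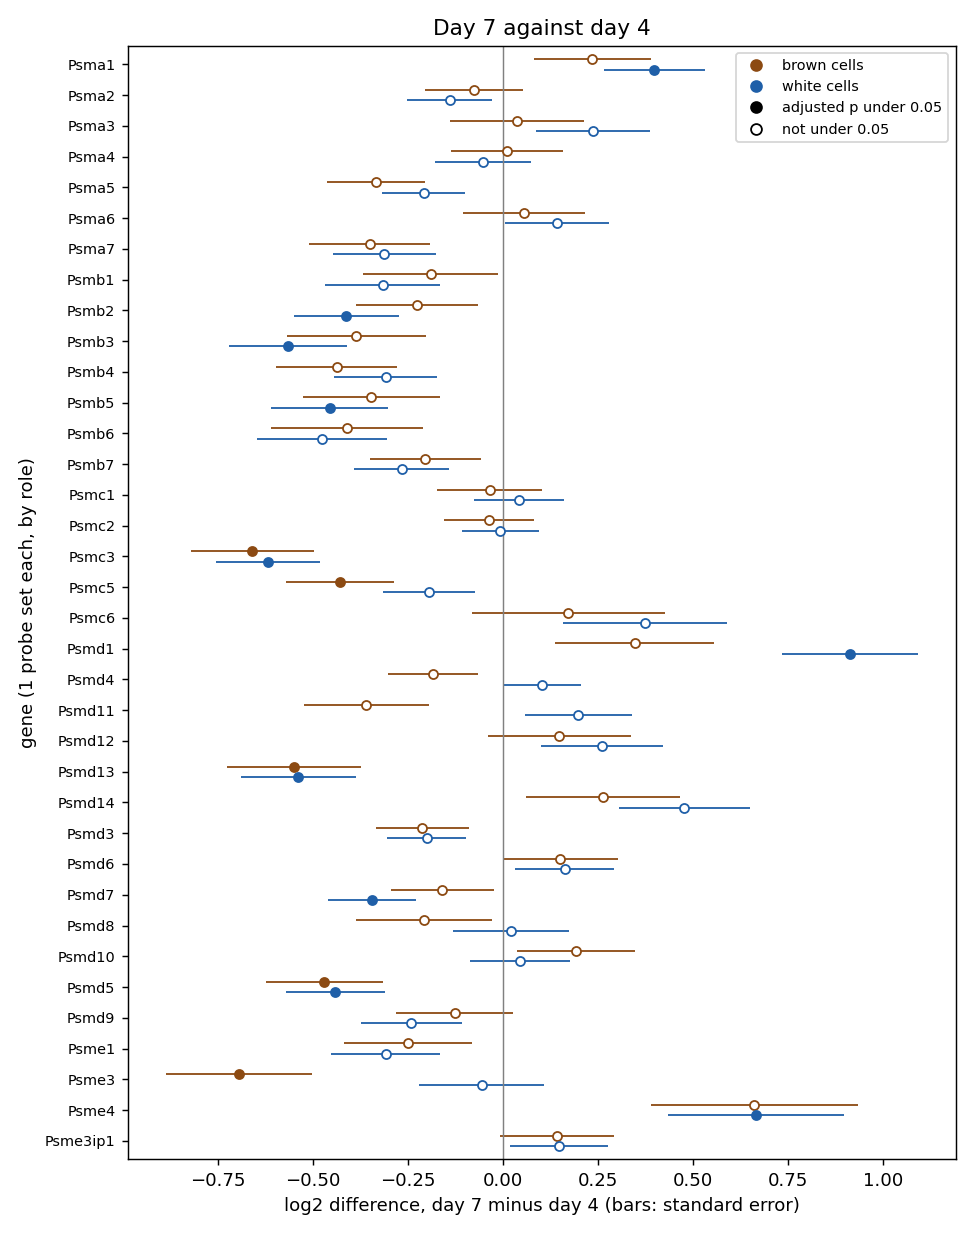
Log2 difference, day 7 minus day 4, of 36 proteasome genes (1 probe set each) in brown cells (brown points) and white cells (blue points), with standard errors of the fit; filled points have an adjusted p under 0.05. Psmc3, Psmd13 and Psmd5 are filled and left of 0 in both, and Psmd1 is the rightmost point, filled in white cells.

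Brown cells were set against white cells at each day to ask whether the cell types differ in proteasome transcripts. At day 4, 7 of 43 member probe sets (16.3%) were higher and 2 (4.65%) lower in brown cells, against 10.8% and 12.2% of all probe sets, of which 23% were called. Psma4, Psma5, Psmb2, Psmb3, Psmb7, Psmd13 and Psme3 were higher, and Psme3ip1 and 1 of 3 Psmd11 probe sets were lower. By unadjusted p under 0.05 in limma, 13 members were higher and 3 lower (37.2%, against 34.2% of all probe sets). The members had a median log2 difference of 0.19, against 0.01 over all probe sets, and 32 of 43 were positive. No member's groups lay apart, as those of 3.32% (higher) and 3.93% (lower) of all probe sets did. Without brown day 4 array 10 or white day 4 array 37 there were 5 calls. There were 12 without brown day 7 array 22 (27.9%, against 23.7% of all probe sets). Leaving out white day 4 arrays 45 and 51 gave 13 (30.2%, against 28.5%). Without brown day 4 array 19, Psma2, Psma3, Psmd5 and Psmd6 were added, all higher in brown cells, and Psmb3 and Psmd13 were lost.

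At day 7, 8 members (18.6%) were higher and 3 (6.98%) lower in brown cells, where 25.2% of all probe sets were called, 12.8% higher and 12.3% lower. Psma4, Psma5, Psmb2, Psmb3, Psmb7 and Psmd13 were higher again, joined by Psmb5 and Psmd7, while Psme3ip1 and 2 probe sets of Psmd11 were lower. By unadjusted p under 0.05 in limma, 11 members were higher and 4 lower (34.9%, against 36.2% of all probe sets). The median was 0.05, against 0.00 over all probe sets. The groups lay apart for 5 members that were higher, Psma4, Psma5, Psmb2, Psmb3 and Psmd7, and for 1 that was lower, Psme3ip1, against 8.71% and 9.42% of all probe sets. Brown and white cells differed in the same direction at both days for 86% of members, against 76% of all probe sets.

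The day 7 results were next taken without array 22. Without it 9 members were called, 4 higher and 5 lower (20.9%, against 23.3% of all probe sets), and the median was -0.02. The calls of Psma4, Psmb5, Psmb7 and Psmd13 were then lost (adjusted p = 0.0611, 0.0838, 0.0558 and 0.149), and those of Psmd8 and 1 Psmc3 probe set appeared on the lower side. Leaving out white day 7 array 36 gave 6 calls. With the Gapdh ratio as a covariate, limma called 0 of the 43 members and 274 of 8397 probe sets, and 2 members were higher and 0 lower at an unadjusted p under 0.05 (4.65%, against 16.5% of all probe sets). The median over the members was 0.13 with the covariate and 0.05 without it. The ratio was 0.854 to 0.942 on brown day 7 arrays and 1.09 to 1.54 on white day 7 arrays, without overlap. That fit can therefore hardly separate the ratio from the cell type. At day 4, where the ratio averaged 0.884 on brown and 0.943 on white arrays, 6 calls were made with that covariate (14%, against 21.7% of all probe sets).

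Markers of other cells also differed between brown and white cultures and between days, and their part in the subunit results was not tested. Striated muscle markers were higher in brown cells for 6 of 7 at day 4 and 3 of 7 at day 7. They summed to 884 to 1346 on brown day 7 arrays and 1371 to 2597 on brown day 4 arrays, against 664 to 1056 on white day 7 arrays and 494 to 889.7 on white day 4 arrays. Troponin Tnnc1 was at the floor set for low signals on 3 of 6 white day 7 arrays and 8 of 8 white day 4 arrays. Of 8 tested macrophage markers 3 were lower in brown cells at day 4 and 5 at day 7. Their sums were 621 to 863 and 522 to 619 on the brown arrays of day 7 and day 4, and 911 to 1440.4 and 608 to 1784 on the white ones. The defining marker Adgre1 did not pass the filter. The 5 tested endothelial markers of 6 summed to 370.0 to 571 on brown day 7 arrays and 204 to 386 on brown day 4 arrays, against 105 to 266 on white day 7 arrays and 134 to 267 on white day 4 arrays. Of these, Cdh5 and Tie1 were higher in brown cells at both days, by 2.59 and 2.68 at day 7 and by 1.39 and 1.11 at day 4, and Flt1 was lower at day 7. Between the days, 3 of 7 muscle markers fell and 1 rose in brown cells, and 2 rose and 0 fell in white cells. Macrophage markers rose for 1 of 8 in brown and 3 of 8 in white cells, and endothelial markers for 1 of 5 in each.

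**Figure D4:**
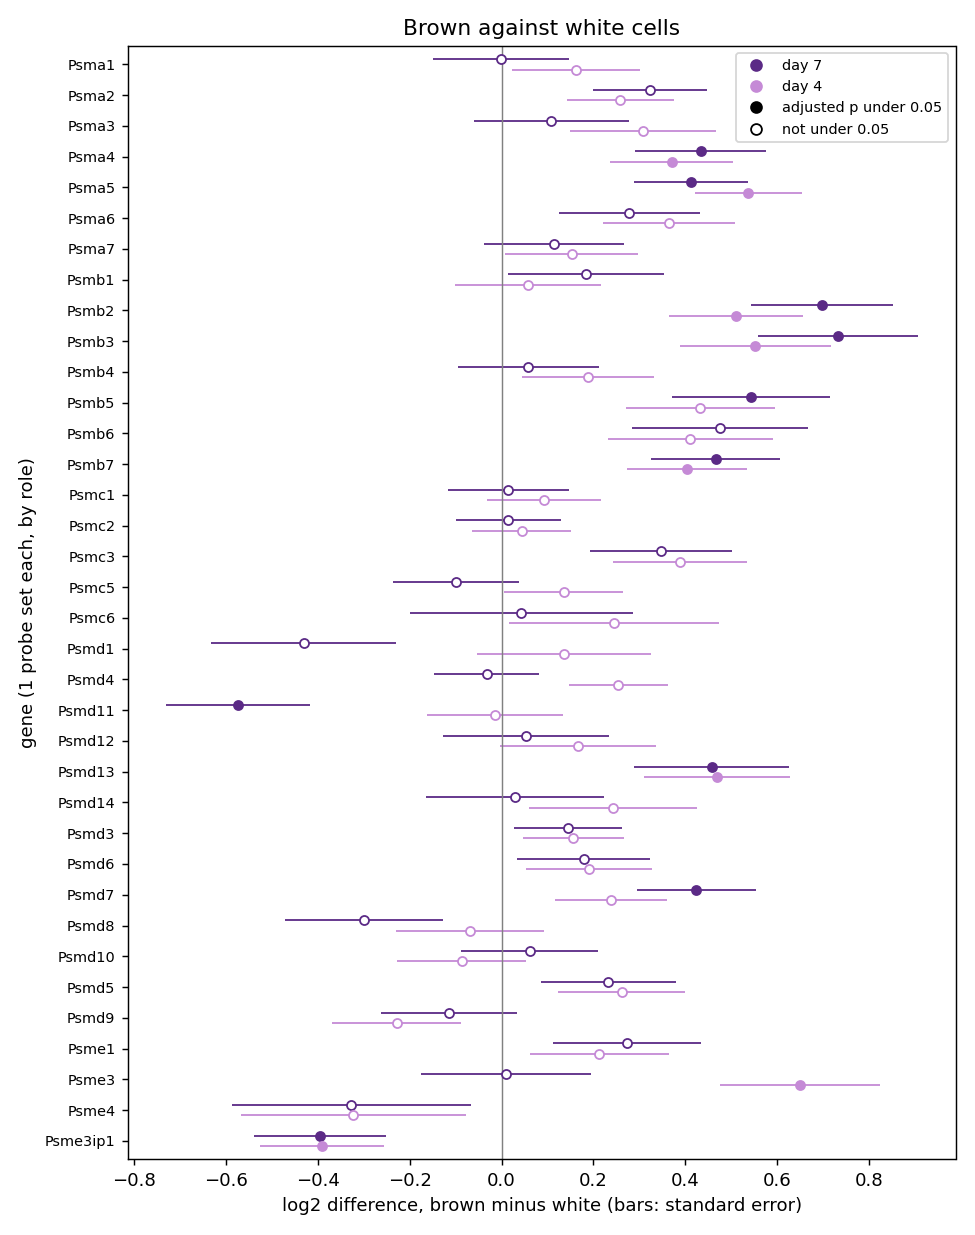
Log2 difference, brown minus white, of 36 proteasome genes (1 probe set each) at day 7 (dark points) and day 4 (light points), with standard errors of the fit; filled points have an adjusted p under 0.05. Psmb2 and Psmb3 lie farthest right at day 7, and Psmd11 and Psme3ip1 are filled on the left.

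The difference between the 2 day changes, brown minus white, was called for 0 of 43 members by limma, against 0.214% of all probe sets, 0.167% higher and 0.0476% lower. At an unadjusted p under 0.05, 2 members were lower and 0 higher, 4.65% of them, against 7.98% of all probe sets. They were Psme3, at -0.64 ± 0.25 (adjusted p = 0.454), and Psmd11, at -0.56 ± 0.22 (adjusted p = 0.429). The median over the members was -0.04, against 0.00 over all probe sets. A call in 1 cell type only is therefore not shown to differ from the other cell type.

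Values of the members follow by role, as scaled signal. Brown values are in the order of the array numbers, 07, 08, 11, 12 and 22 at day 7 and 05, 06, 09, 10 and 19 at day 4, and white values are the lowest and highest with the median. Differences are log2 ± standard error of the limma fit, with Benjamini-Hochberg adjusted p. Signals of different probe sets are not compared with each other.

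All 7 alpha ring subunits were measured, and all 7 had positive differences between brown and white cells at day 4, with a median of 0.31, of which 2 passed the test. Psma5, an alpha ring subunit, had 1068, 1074, 1028, 986 and 1161 on the brown day 7 arrays, against 1338, 1523, 1457, 1419 and 1017 on the brown day 4 arrays. White cells had 639.7 to 936 (median 821) on the white day 7 arrays, against 744 to 1145 (median 899.9) on the white day 4 arrays. At day 7 every brown array lay above every white one, and at day 4 only array 19 lay inside the white range. Brown exceeded white by 0.41 ± 0.12 (adjusted p = 0.0152) at day 7 and by 0.54 ± 0.12 (adjusted p = 0.00139) at day 4, a ratio of 1.33 and 1.45. The day 4 call held under each of 37 alternatives.

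Psma4, another alpha ring subunit, had 924, 941, 892, 888 and 1049 on the brown day 7 arrays, against 910.3, 1146, 1059, 1027 and 615 on the brown day 4 arrays. White cells had 598 to 787 (median 693) on the white day 7 arrays, against 532 to 864 (median 763) on the white day 4 arrays. Brown lay apart from white at day 7, but at day 4 array 19 fell among the lowest white arrays and the other 4 lay above all white ones. The differences were 0.43 ± 0.14 (adjusted p = 0.0254) at day 7 and 0.37 ± 0.13 (adjusted p = 0.0454) at day 4, the day 4 call being lost in 23 of 37 alternatives.

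Psma1 moved with time instead. It had 187 to 238 (median 190.1) on the white day 7 arrays, against 108 to 182 (median 163) on the white day 4 arrays, so that the groups did not overlap, and the difference was 0.40 ± 0.13 (adjusted p = 0.0349). The brown arrays had 196, 227, 189.6, 173 and 233 at day 7 and 187, 159, 198, 202 and 127 at day 4, which overlap, with a difference of 0.24 ± 0.15 (adjusted p = 0.367). Without arrays 45 and 51 the white difference was 0.31 (adjusted p = 0.113), and with the block of adjacent array numbers 0.31 (adjusted p = 0.122). The block fit takes no white day difference from arrays 45 and 51, so these values are not separate checks. Psma3 had 2060.0, 1990.3, 1939, 1904 and 2321 on the brown day 7 arrays, against 2139, 2649.6, 2209.8, 2202 and 1125 on the brown day 4 arrays. Array 19 stood far below the other brown arrays. With it in the fit no difference of Psma3 passed the test. The largest, brown over white at day 4, was 0.31 ± 0.16 (adjusted p = 0.171). Without array 19 that difference was 0.51 (adjusted p = 0.00632).

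Among the core subunits, the structural beta subunits Psmb3 and Psmb2 gave the widest gaps between brown and white cells at day 7. Psmb3 had 1325, 1702, 1439, 1506 and 1939 on the brown day 7 arrays, against 1757, 2176, 1849, 1990.5 and 2559.8 on the brown day 4 arrays. White cells had 863 to 1113 (median 941) on the white day 7 arrays, against 897 to 2094 (median 1399) on the white day 4 arrays. At day 7 all brown arrays exceeded all white arrays, whereas at day 4 white arrays 42, 45 and 51, at 1652, 2046 and 2094, stood above the other white ones and 45 and 51 reached into the brown range. Brown exceeded white by 0.73 ± 0.17 (adjusted p = 0.00280) at day 7, a ratio of 1.66, and by 0.55 ± 0.16 (adjusted p = 0.0159) at day 4. White cells fell by day 7, with -0.56 ± 0.16 (adjusted p = 0.0122), and without arrays 45 and 51 with -0.38 (adjusted p = 0.0632).

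Psmb2, which sits in the same ring, was high on the same white day 4 arrays. It had 1257, 1398, 1192, 1308 and 1162 on the brown day 7 arrays, against 1287, 1591, 1516, 1558 and 1439 on the brown day 4 arrays. White cells had 637 to 901 (median 777) on the white day 7 arrays, against 722 to 1434 (median 1051) on the white day 4 arrays. Day 7 brown arrays again lay above all white ones, and white day 4 arrays 42, 45 and 51 held the 3 highest white values. The brown over white difference was 0.70 ± 0.15 (adjusted p = 0.00149) at day 7 and 0.51 ± 0.15 (adjusted p = 0.0120) at day 4, and the day 4 call held under each of 37 alternatives. In white cells day 7 differed from day 4 by -0.41 ± 0.14 (adjusted p = 0.0366), lost in 17 of 38 alternatives. Psmb4 had 1629, 1646, 1787, 1639 and 2878 on the brown day 7 arrays, against 2217, 2194, 2143, 2924 and 3380.3 on the brown day 4 arrays, where array 22 lay within the day 4 range, and its day change of -0.44 ± 0.16 (adjusted p = 0.0726) became -0.59 (adjusted p = 0.00621) without that array.

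The 3 catalytic subunits had positive brown minus white differences at both days on their main probe sets. Psmb5, the chymotrypsin-like subunit, had 812, 685, 679, 812 and 1182 on the brown day 7 arrays, against 953, 1087, 840.2, 1258 and 1098 on the brown day 4 arrays. White cells had 454 to 681 (median 565) on the white day 7 arrays, against 505 to 1039 (median 823) on the white day 4 arrays. At day 7 only brown array 11 lay within the white range, below white array 43. Brown exceeded white by 0.54 ± 0.17 (adjusted p = 0.0217) at day 7, which was 0.41 (adjusted p = 0.0838) without array 22, and by 0.43 ± 0.16 (adjusted p = 0.0544) at day 4. The day 4 difference passed in some alternatives, such as quantile normalization, at 0.42 (adjusted p = 0.0373). White cells fell by 0.46 by day 7 (SE 0.15, adjusted p = 0.0381), a call lost in 17 of 38 alternatives. A second Psmb5 probe set of low signal, 56.9 to 94.3 on brown day 7 arrays and 62.4 to 108 on white day 7 arrays, had no call and the opposite sign, -0.21 ± 0.18.

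Psmb7, the trypsin-like subunit, had 603, 560.4, 525, 506 and 755 on the brown day 7 arrays, against 618, 699.7, 686, 755 and 614 on the brown day 4 arrays. White cells had 351 to 553 (median 422) on the white day 7 arrays, against 404 to 615 (median 546) on the white day 4 arrays. The groups overlapped through 1 white array at each day, array 43 at day 7 and array 45 at day 4. Brown exceeded white by 0.47 ± 0.14 (adjusted p = 0.0149) at day 7 and 0.40 ± 0.13 (adjusted p = 0.0270) at day 4. Psmb6, the caspase-like subunit, had 894, 808, 728, 594 and 1126 on the brown day 7 arrays, against 985, 1199, 941, 1195 and 1097 on the brown day 4 arrays. White cells had 464 to 762 (median 561) on the white day 7 arrays, against 508 to 1125 (median 862) on the white day 4 arrays. In each comparison the groups of Psmb6 overlapped, and no difference passed the test in the reported fit. It gave 0.48 ± 0.19 (adjusted p = 0.0691) between brown and white at day 7 and -0.48 ± 0.17 (adjusted p = 0.0509) between the white days. Some alternatives called Psmb6. After quantile normalization the white day change was -0.46 (adjusted p = 0.0406). Without arrays 45 and 51 brown exceeded white at day 4 by 0.54 (adjusted p = 0.0272).

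**Figure D5:**
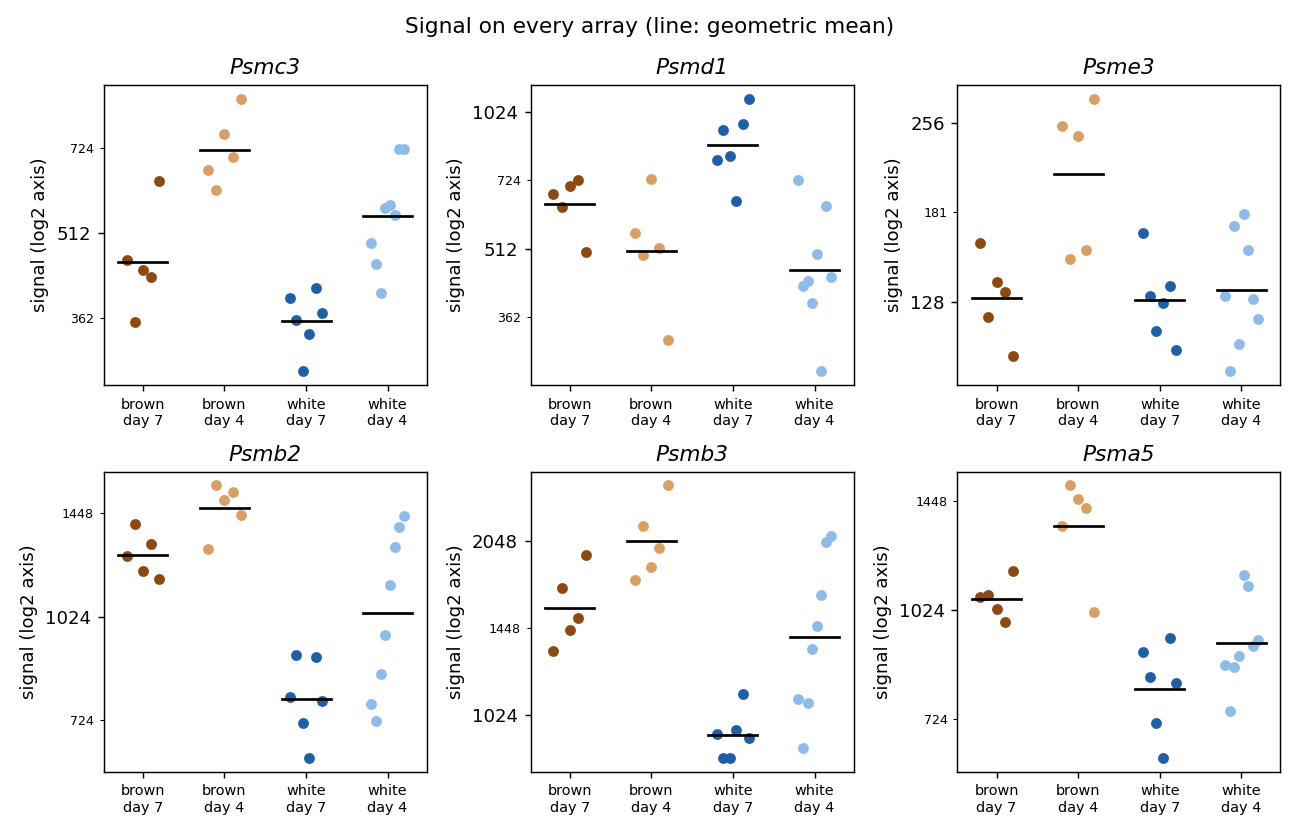
Scaled signal (log2 axis) on every array of Psmc3, Psmd1, Psme3, Psmb2, Psmb3 and Psma5, by group, with the geometric mean as a line. Brown day 7 points of Psmb2, Psmb3 and Psma5 all lie above the white day 7 points, and Psmc3 is lower at day 7 in both cell types.

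Among the ATPases of the cap, Psmc3 fell by day 7 in both cell types. Its probe set of highest signal had 458, 356, 439.9, 428 and 633 on the brown day 7 arrays, against 663, 609, 766, 699 and 885 on the brown day 4 arrays. White cells had 291 to 408 (median 364) on the white day 7 arrays, against 401 to 721 (median 559.5) on the white day 4 arrays. Array 22 lay within the day 4 range, while the other 4 brown day 7 arrays lay below it, and in white cells only day 7 array 43 and day 4 array 37 crossed. Day 7 differed from day 4 by -0.66 ± 0.16 (adjusted p = 0.00716) in brown cells, a ratio of 0.633, and by -0.62 ± 0.14 (adjusted p = 0.00292) in white cells, a ratio of 0.652. The brown call held under each of 38 alternatives, and the white one was lost in 1 of 38, with the Gapdh covariate. The other Psmc3 probe sets gave -0.78 ± 0.20 (adjusted p = 0.0116) and -0.31 ± 0.16 (adjusted p = 0.244) in brown cells and -0.31 ± 0.17 (adjusted p = 0.233) and -0.42 ± 0.14 (adjusted p = 0.0320) in white cells. The first Psmc3 probe set and the one at -0.78 in brown cells carry the suffix _f for related sequences, so other transcripts may bind. The remaining one carries the suffix _i.

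Psmc5, another ATPase, had 289, 264, 273, 270.4 and 457 on the brown day 7 arrays, against 382, 365, 421, 408 and 473 on the brown day 4 arrays. Array 22 lay within the day 4 range and the other 4 below it. Its change was -0.43 ± 0.14 (adjusted p = 0.0484) with array 22 and -0.58 (adjusted p = 0.00293) without, and the call was lost in 23 of 38 alternatives. Psmc6 had 964, 781, 910.2, 982 and 707 on the brown day 7 arrays, against 939, 960.2, 896, 928 and 349 on the brown day 4 arrays, with array 19 far below the rest, and no call. Psmc1 and Psmc2 differed by at most 0.09 in any comparison, and neither was called.

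The largest change between days was in the base of the cap. Psmd1, the scaffold that holds the ubiquitin receptor Adrm1, had 652 to 1096 (median 878) on the white day 7 arrays, against 275 to 727 (median 440.3) on the white day 4 arrays. Of the white day 7 arrays 5 lay above all day 4 arrays, and day 7 array 40 lay below day 4 array 33. The difference was 0.91 ± 0.18 (adjusted p = 0.00105), a ratio of 1.88, and the call was lost in 1 of 38 alternatives, with the Gapdh covariate, at 0.89 (adjusted p = 0.191). In brown cells Psmd1 had 677, 632, 706, 726 and 505 at day 7 and 556, 495, 728, 514 and 323 at day 4. These overlapped, at 0.35 ± 0.21 (adjusted p = 0.322), and the brown change minus the white change was -0.57 ± 0.28 (adjusted p = 0.6246). Psmd4, a ubiquitin receptor, had 797 to 1021 and 922 to 1022 on the brown arrays of day 7 and day 4 and 784 to 972 and 618 to 1063 on the white ones, and was not called.

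In the lid, Psmd13 fell by day 7 in both cell types and was higher in brown cells at both days. It had 382, 359, 388, 331 and 527 on the brown day 7 arrays, against 455, 540.4, 653, 610.2 and 634 on the brown day 4 arrays. White cells had 241 to 332 (median 290.4) on the white day 7 arrays, against 299.8 to 648 (median 418) on the white day 4 arrays. Of the brown day 7 arrays array 22 alone reached into the day 4 range. Day 7 differed from day 4 by -0.55 ± 0.18 (adjusted p = 0.0398) in brown and -0.54 ± 0.15 (adjusted p = 0.0135) in white cells. Brown exceeded white by 0.46 ± 0.17 (adjusted p = 0.0471) at day 7 and 0.47 ± 0.16 (adjusted p = 0.0336) at day 4, calls lost in 19 of 37 and 10 of 37 alternatives. The day change was lost in 10 of 38 alternatives in brown cells and in 2 of 38 in white cells.

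Psmd11, a lid subunit, ran the other way at day 7, and its 3 probe sets differed among themselves. The first had 370.2, 392, 366, 334 and 523 on the brown day 7 arrays, against 419, 442, 535, 397 and 823 on the brown day 4 arrays. White cells had 513 to 691 (median 572) on the white day 7 arrays, against 385 to 641 (median 505) on the white day 4 arrays. All brown day 7 arrays but array 22 lay below the white day 7 arrays, at -0.57 ± 0.16 (adjusted p = 0.00841) with array 22 and -0.68 (adjusted p = 0.00294) without. The second had 109, 114, 112, 97.8 and 279 on brown day 7 arrays and 183 to 214 (median 202) on white day 7 arrays. Here array 22 lay above all white day 7 arrays and the other 4 below them, at -0.62 ± 0.22 (adjusted p = 0.0346) with array 22 and -0.90 (adjusted p = 0.000501) without. At day 4 the 3 probe sets gave -0.01 ± 0.15, -0.50 ± 0.20 and -0.98 ± 0.27, and the third alone was called (adjusted p = 0.00988).

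Psmd7, a lid subunit that pairs with the deubiquitinase Psmd14, had 703, 634, 666, 582 and 681 on brown day 7 arrays and 431 to 561 (median 468) on white day 7 arrays, which do not overlap. The difference was 0.42 ± 0.13 (adjusted p = 0.0174). In white cells it fell by 0.35 by day 7 (SE 0.12, adjusted p = 0.0373), lost in 14 of 38 alternatives. Psmd14 itself had 304 to 405 (median 343) on the white day 7 arrays, against 153 to 378 (median 268) on the white day 4 arrays. These overlapped, and the difference of 0.48 ± 0.17 (adjusted p = 0.0524) missed the threshold. It passed in some alternatives, such as quantile normalization, at 0.46 (adjusted p = 0.0404). Psmd3 had 589 to 769 and 672 to 887 on the brown arrays of day 7 and day 4 and 505 to 678 and 534 to 809 on the white ones, without a call.

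Of the 3 chaperones that assemble the cap, Psmd5 fell and Psmd9 and Psmd10 had no call. Psmd5 had 415, 528, 399, 427 and 368 on the brown day 7 arrays, against 613, 613, 840.5, 563 and 394 on the brown day 4 arrays. White cells had 299 to 420.2 (median 361) on the white day 7 arrays, against 412 to 589 (median 491) on the white day 4 arrays. Day 4 arrays other than 19 lay above all day 7 arrays in brown cells, and in white cells only day 7 array 40 and day 4 array 34 crossed. The differences were -0.47 ± 0.15 (adjusted p = 0.0432) in brown cells, lost in 16 of 38 alternatives, and -0.44 ± 0.13 (adjusted p = 0.0193) in white cells, lost in 4 of 38.

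The alternative caps moved in different directions. Psme3, which caps nuclear proteasomes, had 161, 121, 138, 133 and 104 on the brown day 7 arrays, against 253, 151, 243, 157 and 281 on the brown day 4 arrays. White cells had 106 to 167 (median 129) on the white day 7 arrays, against 97.8 to 180.0 (median 130.1) on the white day 4 arrays. Brown day 4 arrays 05, 09 and 19 lay above all other arrays of the series, and 06 and 10 lay inside the white day 4 range. Psme3 fell in brown cells by day 7, with -0.69 ± 0.19 (adjusted p = 0.0173), and brown exceeded white at day 4 by 0.65 ± 0.17 (adjusted p = 0.00790). The brown day call was lost in 2 of 38 alternatives, without brown day 4 array 09 (adjusted p = 0.0525) or 19 (adjusted p = 0.0595). At day 7 the brown minus white difference was 0.01 ± 0.18 (adjusted p = 0.978). The day 4 call held under each of 37 alternatives.

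Psme4, a large activator known from sperm development and DNA repair, had 221, 169, 203, 224 and 98.4 on the brown day 7 arrays, against 139.5, 96.5, 141, 107 and 83.4 on the brown day 4 arrays. White cells had 157 to 277 (median 227) on the white day 7 arrays, against 79.8 to 252 (median 127) on the white day 4 arrays. In brown cells array 22 lay with the day 4 arrays and the other 4 above them. Day 7 differed from day 4 by 0.67 ± 0.23 (adjusted p = 0.0444) in white cells, lost in 18 of 38 alternatives, and by 0.66 ± 0.27 (adjusted p = 0.118) in brown cells, or 0.87 (adjusted p = 0.0282) without array 22. Psme1, a cap induced by interferon, had 717 to 841 and 656 to 1194 on the brown arrays of day 7 and day 4 and 499 to 769 and 602 to 1186 on the white ones, and was not called.

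Psme3ip1, which binds Psme3 and is no subunit, had 196, 175, 167, 202 and 209.8 on the brown day 7 arrays, against 193, 124, 176, 170.3 and 207 on the brown day 4 arrays. White cells had 219 to 297 (median 242) on the white day 7 arrays, against 190.0 to 295 (median 214) on the white day 4 arrays. Every brown day 7 array lay below every white day 7 array, and at day 4 the groups overlapped. Brown minus white was -0.39 ± 0.14 (adjusted p = 0.0435) at day 7 and -0.39 ± 0.13 (adjusted p = 0.0370) at day 4, calls lost in 11 of 37 and 8 of 37 alternatives.

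Of the 3 immunoproteasome subunits, which replace the catalytic ones after interferon, Psmb9 and Psmb8 were higher in brown cells. Psmb9 had 390.1, 377, 277, 314 and 479 on brown day 7 arrays and 133 to 205 on white day 7 arrays, which do not overlap. It differed by 1.06 ± 0.24 (adjusted p = 0.00213) at day 7 and 0.88 ± 0.23 (adjusted p = 0.00678) at day 4, and Psmb8 by 0.67 ± 0.22 (adjusted p = 0.0226) at day 7. Array 22 again had the highest Psmb9 and Psmb8 of its group. Psmb10 had no call in any comparison.

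Proteasome assembly factors and partners were taken from a list of 29 symbols, of which 18 were annotated and tested. Between the white days 4 rose and 0 fell, where 8.36% of all probe sets were higher and 10.6% lower, with a median of 0.18. Ecpas, which holds core and cap together, gave 0.74 ± 0.21 (adjusted p = 0.0150) and Zfand5, which stimulates them, 0.58 ± 0.19 (adjusted p = 0.0320). Nfe2l1, named here for its known role, gave 0.44 ± 0.14 (adjusted p = 0.0320) in white and 0.36 ± 0.17 (adjusted p = 0.183) in brown cells. In brown cells 0 of 18 were called between the days, against 12.1% of all probe sets. At day 4, 4 were higher in brown than in white cells, as 10.8% of all probe sets were, led by the deubiquitinase Uchl5 at 0.76 ± 0.18 (adjusted p = 0.00280) and the chaperone Psmg2 at 0.69 ± 0.24 (adjusted p = 0.0357). At day 7, 1 was lower, as 12.3% of all probe sets were. It was the unfoldase Vcp, at -0.54 ± 0.12 (adjusted p = 0.00110).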

How the data were processed

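RNA of primary mouse adipocyte cultures had been measured on 24 Affymetrix arrays of 12488 probe sets. The deposited values are linear signal intensities, made by the authors with MAS5 per the submitters' processing notes. The version, annotation and genome build are not given in the sources used here. All 24 columns of the deposited table were used, and 0 were left out.

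Each array was scaled to a trimmed mean of 150, with 2% trimmed at each end, floored at 8.21 (the 20th percentile of all values, 1.56% of the tested values) and taken to log2. Control probe sets (66) were removed, and probe sets above the 40th percentile of their array on at least 5 arrays were kept, 8397 in all. One model with 4 group means was fitted in limma 3.58.1 (R 4.3.3) with 20 residual degrees of freedom and an intensity trend. The 5 contrasts were tested two-sided with Benjamini-Hochberg adjustment over all 8397 probe sets at 0.05. Arrays carry no count depth, so their number limits the precision.

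Symbols came from the platform annotation, which gave 10855 probe sets 1 symbol, 396 several and 1237 none. Of the first kind, 10839 matched the RefSeq gene table by gene ID, and 0 symbols changed. Of the tested members, 10 probe sets carry a suffix _f, _s, _i or _r in their names. The suffixes _f and _s mark related sequences, so other transcripts may bind. They stand on the main probe sets of Psma3, Psmb4, Psmb5, Psmb7, Psmc3 and Psmd12. The suffix _r stands on the probe set of Psmd9 and on the Psmd11 probe set called at day 4.

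The members and the gene lists were chosen with earlier results of these data known. Per comparison and direction the 4 largest called differences were named, together with the catalytic subunits, the Psme genes and the member of highest mean signal in each role. Of neighbouring lists, the 2 largest called per comparison and direction were named.

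Alternatives covered scaling, floor, filter, variance model, probe set choice, block, covariate and samples. The fit was tested on simulated data. Promoter sequences are those of RefSeq for GRCm38.p6. Figures were drawn with matplotlib 3.10.9 in Python 3.11.15.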

Additional observations from a re-analysis of the deposited data

Results flagged for a closer look

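Signals of 36 member genes in the 4 groups gave 144 combinations, and in 11 of them the highest or lowest array stood apart from the rest of its group by Dixon's criterion, which chance meets in about 5% of groups. The share over all probe sets was not taken. Over all probe sets, array 22 was the highest of its group for 27.2% and the lowest for 29.9%. Brown day 4 array 19 was so for 29.7% and 26.3%. Of the 11 combinations, 5 were brown day 7 array 22. Its median deviation over the 43 members was 0.38, against -0.07 to -0.06 on the other 4 brown day 7 arrays. On it, Psma7 had a signal of 1232 (others 748 to 764), Psmb4 of 2878 (others 1629 to 1787), Psmc2 of 956 (others 609 to 669), Psmc5 of 457 (others 264 to 289) and Psmd10 of 127 (others 100.1 to 104). All 5 were the highest of the group.

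Brown day 4 array 19 stood apart 4 times. It was lowest for Psma3, at 1125 (others 2139 to 2649.6), for Psmc1, at 276 (others 376 to 407), and for Psmc6, at 349 (others 896 to 960.2). It was highest for Psmd9, at 269 (others 181 to 199). Brown day 4 array 05 was lowest for Psma7, at 895 (others 1083 to 1143). White day 7 array 43 was highest for Psmc1, at 394 (others 337 to 355).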

How the results depend on the processing

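No paired analysis was possible because each array number occurs in only 1 group, so that no label pairs arrays. A fit with runs of adjacent array numbers as a block, which no label names as batches, was made in its place for the day comparisons. Brown arrays 19 and 22 were also joined, as were white arrays 45 and 51, though their numbers are not adjacent. The alternatives without Psmc3ip and Psme3ip1 together, and without array 22 and arrays 45 and 51 together, were chosen after seeing the data. No median over the members moved by more than the spread between arrays, and no result changed sign as a called value. Counts of called members that left 1.5 times the reported one were these, and where nothing else is said the cause was not tested. Between the brown days (6 reported), 3 were called without a filter, without an intensity trend and with only the groups compared. There were 13 with array weights and 11 with runs of adjacent array numbers as a block or without arrays 22, 45 and 51. Between the white days (11 reported), 7 were called without a trend and with only the groups compared, 2 without arrays 45 and 51, 4 without arrays 22, 45 and 51 and 0 with the Gapdh covariate. For brown against white at day 4 (9 reported), 15 were called with array weights, 5 with only the groups compared and 14 without arrays 22, 45 and 51. At day 7 (11 reported), 0 were called with the covariate.

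Leaving out 1 array at a time gave 2 to 9 called members between the brown days, 5 to 15 between the white days, 5 to 12 for brown against white at day 4, 6 to 12 at day 7 and 0 to 0 for the difference of day changes. The medians ran from -0.20 to -0.08, -0.13 to -0.02, 0.15 to 0.26, -0.02 to 0.10 and -0.13 to -0.00333 in that order, so the sign at day 7 changed without array 22. Over all probe sets, calls ran from 668 to 1165, 1127 to 1909, 1547 to 2150, 1710 to 2262 and 4 to 23 in the same order.

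Over all probe sets, 1012 calls between the brown days became 1665 with array weights, 1612 with the block and 668 without brown day 7 array 08. The 1595 calls between the white days became 1053 without arrays 45 and 51 and 37 with the covariate, and the 2112 of brown against white at day 7 became 274 with the covariate. The 18 calls for the difference of day changes became 10 with no floor or no filter, 35 with the higher floor, 8 with the stricter filter or 1 probe set a gene, 11 without a trend, 45 with weights, 5 with the covariate and 48 with the block.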

Other observations

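Enzymes that attach ubiquitin, the step before the proteasome, were read from a list of 39 symbols of which 21 were annotated and tested. Between the brown days 2 rose and 1 fell, where 12.1% of all probe sets were called, with a median log2 difference of 0.13 over the list. The ligase scaffold Cul1 gave 0.69 (adjusted p = 0.0333) and the conjugating enzyme Ube2g1 0.55 (adjusted p = 0.0143), while Ube2s, which extends ubiquitin chains for the anaphase-promoting complex, gave -1.46 (adjusted p = 0.0181). Between the white days, where 19% of all probe sets were called, only the scaffold Cul3 was, at 0.57 (adjusted p = 0.0458), with a list median of 0.28. Brown cells exceeded white cells in Ube2n, which builds ubiquitin chains used in signalling, by 0.35 (adjusted p = 0.0253) at day 7 and 0.44 (adjusted p = 0.0038) at day 4. At day 7 Cul1 was also higher in brown cells, at 0.56 (adjusted p = 0.0431), and Ube2s was lower, at -1.07 (adjusted p = 0.0462). Ube2r2 was lower in brown cells at both days, with -0.75 at day 7 and -0.48 at day 4 (adjusted p = 0.0035), and Ube2h at day 4, with -0.63 (adjusted p = 0.0482). The adjusted p-values are those of limma with Benjamini-Hochberg adjustment over all probe sets. Brown against white called 4 of the 21 at day 7 and 3 at day 4, where 25.2% and 23% of all probe sets were called.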
